A study of Mus musculus with 2 samples.

Results

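Secreted Wnt antagonists are extracellular proteins that keep Wnt ligands from signalling. The secreted frizzled-related proteins (SFRPs, including Frzb) carry a cysteine-rich domain like that of the Frizzled receptors and bind Wnt ligands, as does Wif1 through another domain. The Dickkopf proteins Dkk1 and Dkk2 and sclerostin, the product of Sost, bind the co-receptors Lrp5 and Lrp6 instead. Canonical Wnt signalling stabilises β-catenin and restrains the differentiation of preadipocytes into fat cells, and SFRPs are made by stromal cells of adipose tissue.

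The 10 genes described here, Sfrp1, Sfrp2, Sfrp4, Sfrp5, Frzb, Dkk1, Dkk2, Dkk3, Wif1, and Sost, were all found among the 24091 genes of the deposited table. They were selected by symbol as SFRP, DKK, and related secreted inhibitors, and the family was chosen on the measured difference of Sfrp2 between these same libraries. The values of Sfrp2 and of its relatives are therefore a description, and nothing is inferred from the choice.

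The data were RNA sequencing of 2 libraries of polyadenylated RNA from C57BL/6 mice. In 1 library the donors were sham-irradiated, and in the other they received pelvic irradiation, given in the labels as 7.5 Gy and 5 days without saying whether the dose was daily or total. In both, gonadal fat was harvested 2 months after radiation, collagenase was used to free the cells, and those that floated were kept in culture for 3 days. Both titles also name PBS, with no statement of what was given PBS. The labels do not give the age, sex, or number of mice. Each condition had 1 library, so no difference could be tested or checked on replicates, and every interval below covers counting error only.

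Expression is given as FPKM, the number of fragments for each kilobase of a gene and for each 1000000 fragments of the library, which allows levels of different genes to be compared. Differences are the deposited log2(FPKM + 0.1) of the irradiated library minus that of the sham library, unless a ratio of fragments is named. The depth recovered from the values was 30600000 fragments in the sham library and 35000000 in the irradiated library. The material is labelled as primary adipocytes, but only 3 of 12 mature adipocyte markers reached an FPKM of 1 in either library. These were Fabp4, at 96.9 in both libraries, Lpl, at 68.0 and 66.6, and Pnpla2, at 5.11 and 5.76. The defining marker Adipoq stood at 0.133 and 0.232, whereas all 12 fibroblast and adipose progenitor markers reached an FPKM of 1. The libraries are therefore called by their labels, with no statement on which cells made the RNA. In bulk RNA, fewer cells of a type and less RNA per cell cannot be told apart.

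Sfrp2 (chromosome 3, 83766321 to 83774314, plus strand, mm10) was the most abundant antagonist in both libraries and the one with the largest difference. Its FPKM was 116 in the sham library (95% Poisson interval 113 to 119) and 44.5 in the irradiated library (43.0 to 46.1), on 7088 and 3114 fragments. This is a difference of -1.38, or 2.61-fold lower in the irradiated library, with an exact 95% binomial interval of the log2 ratio of fragments from -1.44 to -1.32. By level, Sfrp2 ranked 421 among all genes in the sham library and 1265 in the irradiated library. The 3′ end of Sfrp2 lies over exons of the antisense gene Gm26771 (347 of 2153 exon bases in the GENCODE M21 annotation), which has no row of its own in the table. The library preparation was stranded, but the sources used here do not say whether counting used strand, so fragments of that stretch cannot be assigned with certainty.

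Among the 493 genes at an FPKM of 100 or more in the sham library, 2 were lower by at least 1, Sfrp2 and Hp, the gene of the haemoglobin-binding acute-phase protein haptoglobin. Hp stood at 146 and 45.2, a difference of -1.69. The next lowest of these abundant genes were Saa3, at -0.76, and Cxcl12, at -0.75. This cut was set on the sham library, where Sfrp2 and Hp were higher. Sfrp2 was also chosen for its difference, so nothing is read from its place among these genes. Of the 11253 genes that reached an FPKM of 1 in a library, 18 had a difference as low as that of Sfrp2 or lower, itself included.

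**Figure D1:**
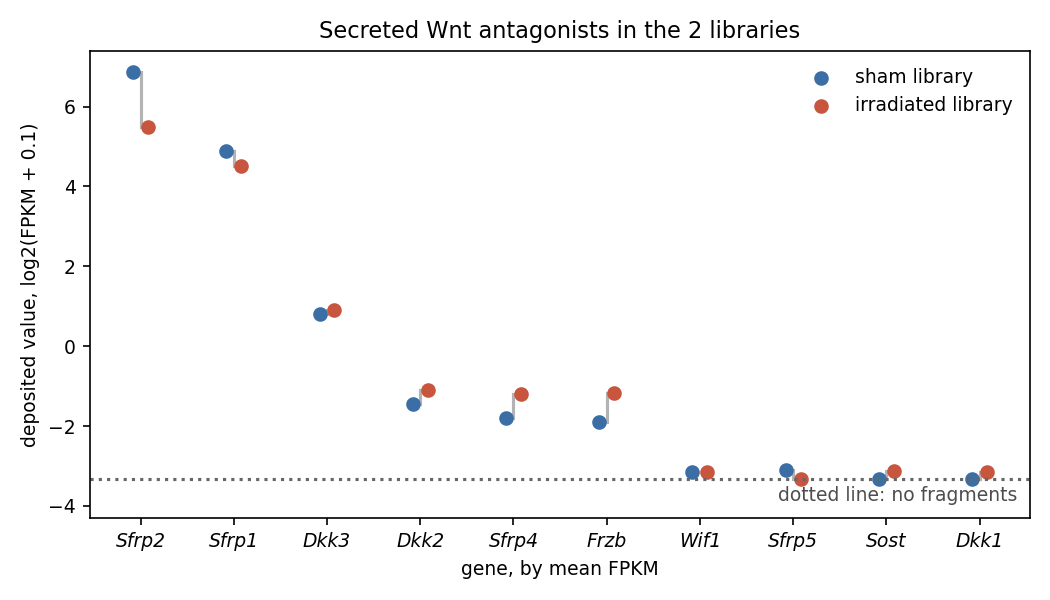
Deposited log2(FPKM + 0.1) of each antagonist (vertical axis) in the sham (blue) and irradiated (red) library, with 1 point per library and genes ordered by mean FPKM. Sfrp2 and Sfrp1 were lower in the irradiated library, Dkk3, Dkk2, Sfrp4, and Frzb were higher, and the last 4 genes lay at or next to the dotted line that marks no fragments.

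The sequence just before the start of Sfrp2 is shown because this gene carries the largest difference, beside that of its relative Frzb, which differed in the opposite direction. RefSeq start regions (GRCm38.p6) were found for 7 of the 10 genes, Sfrp2, Sfrp5, Frzb, Dkk1, Dkk2, Wif1, and Sost. The 250 bases before the start are printed on the coding strand, with CG dinucleotides, the sites of DNA methylation, in capitals. The Sfrp2 stretch is chr3:83766071-83766320 and that of Frzb, on the minus strand, is chr2:80447397-80447646.
Sfrp2: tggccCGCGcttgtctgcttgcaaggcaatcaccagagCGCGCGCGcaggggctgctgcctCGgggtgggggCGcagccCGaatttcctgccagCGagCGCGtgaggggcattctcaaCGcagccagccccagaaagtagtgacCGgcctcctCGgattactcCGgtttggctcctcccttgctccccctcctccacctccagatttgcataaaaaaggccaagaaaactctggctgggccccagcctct
Frzb: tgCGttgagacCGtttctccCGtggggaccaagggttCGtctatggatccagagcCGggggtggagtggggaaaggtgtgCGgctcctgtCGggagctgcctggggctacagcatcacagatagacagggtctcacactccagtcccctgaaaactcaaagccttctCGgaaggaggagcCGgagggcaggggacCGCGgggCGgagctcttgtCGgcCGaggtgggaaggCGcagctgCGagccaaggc

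Both stretches hold 16 CG dinucleotides and are rich in G and C, at 63.6% for Sfrp2 and 64.4% for Frzb. Over all 32851 such stretches the median was 6 CG dinucleotides and 52.4% G and C, and 25.4% held at least 16 CG dinucleotides. Sfrp5 held 13 and Wif1 21, while Dkk2 held 7 and Dkk1 and Sost 6 each. Of 4 motifs searched on both strands, TATAAA for the TATA box, CCAAT for the CCAAT box, GGGCGG for the GC box, and CTTTGA for the core bound by TCF and LEF factors, none was found before Sfrp2, whereas Frzb held the GC box and the TCF/LEF core once each. These motifs were present in 12.4%, 33.8%, 32.7%, and 13.8% of all stretches, respectively. DNA methylation and factor binding were not measured, and these matches describe letters in the window only.

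Sfrp1 (chromosome 8, 23411502 to 23449632), the closest in level to Sfrp2, was also lower in the irradiated library, but by much less. Its FPKM was 29.3 in the sham library (Poisson interval 28.4 to 30.3) and 22.8 in the irradiated library (22.1 to 23.6), on 3919 and 3492 fragments. The difference was -0.36, 1.28-fold lower, with an interval of the fragment ratio from -0.43 to -0.30. A difference as low as that of Sfrp1 or lower was found in 2.83% of the 11253 genes.

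The other expressed SFRPs were higher in the irradiated library, at levels far below that of Sfrp2. Sfrp4 (chromosome 13, 19623175 to 19632994) had an FPKM of 0.189 on 23 fragments and 0.338 on 47, and its deposited values differed by 0.60. Frzb (chromosome 2, 80411970 to 80447396), also called SFRP3, had an FPKM of 0.168 on 15 fragments and 0.344 on 35, a difference of 0.73. The added 0.1 shrinks such low genes, and the log2 ratio of fragments was 0.84 for Sfrp4 (0.09 to 1.62) and 1.03 for Frzb (0.12 to 2.01). Both intervals lay above 0 and both were wide.

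Sfrp5 and Wif1, the remaining antagonists that bind Wnt ligands, were at the limit of detection. Sfrp5 (chromosome 19, 42197971 to 42202252) had 1 fragment in the sham library and 0 in the irradiated library, where a count of 0 allows an FPKM of up to 0.0452, the level of 3 fragments. Wif1 (chromosome 10, 121034004 to 121100642) had 1 fragment in each library. No difference was detectable for either gene at this depth.

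Among the antagonists that act on the co-receptors Lrp5 and Lrp6, Dkk2 alone had more than 1 fragment in a library. Dkk2 (chromosome 3, 132085292 to 132180304) had an FPKM of 0.266 on 30 fragments and 0.363 on 47, a difference of 0.34. Its log2 ratio of fragments was 0.45, with an interval from -0.24 to 1.16 that includes 0. Dkk1 (chromosome 19, 30545885 to 30549496) and Sost (chromosome 11, 101962458 to 101967015) each had 0 fragments in the sham library and 1 in the irradiated library. A count of 0 in the sham library allows an FPKM of up to 0.0440 for Dkk1 and 0.0475 for Sost, again the level of 3 fragments.

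Dkk3 (chromosome 7, 112116019 to 112159057), a divergent member of the Dickkopf family, was the third most abundant antagonist. Its FPKM was 1.64 in the sham library (Poisson interval 1.40 to 1.90) and 1.78 in the irradiated library (1.54 to 2.03), on 169 and 210 fragments. The difference of 0.11 was within counting error, since the fragment ratio had an interval from -0.18 to 0.42.

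The order of levels was Sfrp2, Sfrp1, and Dkk3 in both libraries, with Poisson intervals that did not overlap. Dkk2, Sfrp4, and Frzb followed in the sham library, and Dkk2, Frzb, and Sfrp4 in the irradiated library. The intervals of these last 3 genes overlapped in both libraries (those of Dkk2 and Frzb ran from 0.179 to 0.379 and from 0.0943 to 0.278 in the sham library), so their order was not resolved.

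An FPKM of 1 was reached in a library by 3 of the 10 antagonists, Sfrp1, Sfrp2, and Dkk3. Of these, 1 was lower in the irradiated library by at least 1, against 0.373% of the 11253 genes that reached this level (42 genes), and 0 were higher by at least 1, against 0.791% (89 genes). Since Sfrp2 led to the choice of the family, nothing is read from the first count. The median difference of the 3 antagonists was -0.36, and that of all 11253 genes was 0.02.

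How far each antagonist followed Sfrp2 was described by its own difference minus that of Sfrp2. On this scale Sfrp1 was higher by 1.02, Dkk3 by 1.49, Dkk2 by 1.72, Sfrp4 by 1.98, and Frzb by 2.11. The counting interval of the corresponding log2 odds ratio of fragments, which does not depend on library totals, ran from 0.93 to 1.11 for Sfrp1 and from 1.50 to 3.39 for Frzb. Because Sfrp2 was chosen for its difference and only 18 of 11253 genes lay as low, almost any gene would be higher on this scale, and nothing is read from the sign. Sfrp1 shared the direction of Sfrp2 but not its size. The other 4 were higher where Sfrp2 was lower, with an interval of their own that lay above 0 for Sfrp4 and Frzb only. Among the 11253 genes that reached an FPKM of 1, 23.8% had an interval above 0 and 17.5% had one below 0. Sfrp4 and Frzb stayed under that level, where no such share was obtained, so nothing is read from their intervals as a count. The gap in level to Sfrp1 and Dkk3 narrowed. Sfrp2 stood 3.95 times above Sfrp1 in FPKM in the sham library and 1.95 times in the irradiated library. It stood 70.7 and 25.0 times above Dkk3.

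**Figure D2:**
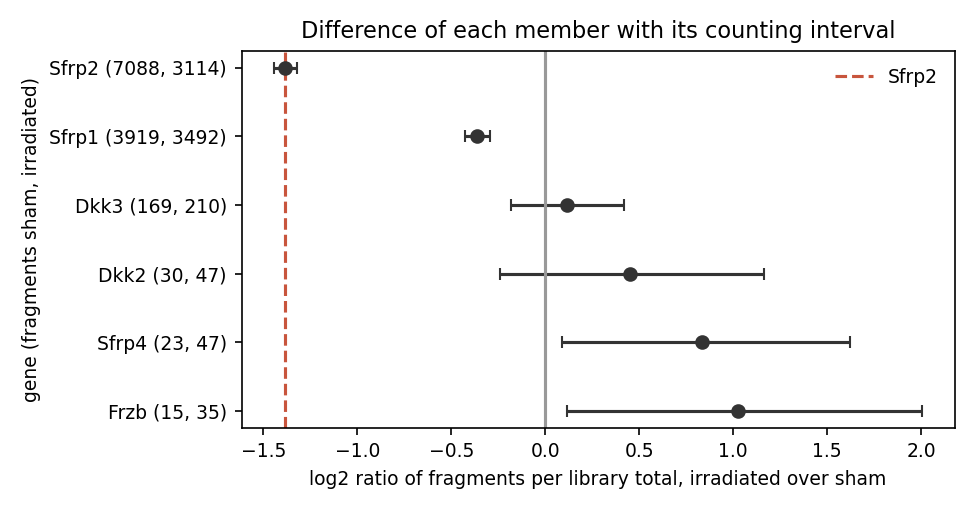
Log2 ratio of fragments per library total, irradiated over sham (horizontal axis), for the 6 antagonists with more than 3 fragments in a library, with exact 95% counting intervals and the fragments of each library beside the name. The dashed line marks Sfrp2 at -1.38, the gene for which the family was chosen, and of the other 5 genes only Sfrp1 has an interval below 0. Such an interval was found for 17.5% of the 11253 genes that reached an FPKM of 1, so nothing is read from this count.

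Sfrp2 made up most of the RNA of the 10 antagonists and most of the difference in its sum. The summed FPKM of the 10 genes was 147.7 in the sham library and 70.2 in the irradiated library, 2.10 times lower. Sfrp2 made up 78.6% of this sum in the sham library and 63.4% in the irradiated library, and Sfrp1 made up 19.9% and 32.5%. Without Sfrp2 the sum was 31.6 and 25.7. Without Sfrp2 and Sfrp1 it was 2.30 and 2.86, higher in the irradiated library.

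Genes whose pair of values was most like that of Sfrp2 were found by the distance between log2 values over the 2 libraries, leaving out predicted genes. They were Hp, at a distance of 0.33, Igfbp3, a carrier of insulin-like growth factors, at 0.56, and Lars2, a mitochondrial leucyl-tRNA synthetase, at 0.61. Igfbp3 had an FPKM of 81.5 and 38.2, a difference of -1.09, and Lars2 had 89.2 and 62.1, a difference of -0.52. With 2 libraries this likeness means a similar level and direction in each, and nothing more.

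The other genes of the Wnt pathway were set against the same threshold. Of 83 such genes, listed by role, 56 reached an FPKM of 1. Of these 56, 1 was higher by at least 1 (Wnt2b) and 0 were lower by at least 1. Over all 11253 genes the shares were 0.791% and 0.373%, so nothing is read from these counts. Counting intervals lay above 0 for 14 of the 56 and below 0 for 15, against 23.8% and 17.5% of all 11253 genes. Their median difference was 0.005, beside 0.02 for all genes. Some genes belong to more than 1 of the lists.

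Further antagonists of the pathway were described by 17 genes, of which 11 reached an FPKM of 1 and 0 passed 1 in either direction, where 0.791% of all 11253 genes were higher and 0.373% lower by this much, so nothing is read from this count. Their median difference was 0.09. Igfbp4, an IGF carrier that can also inhibit Wnt signalling, was the most abundant, at 88.5 and 81.5. Draxin, a secreted guidance protein that binds Lrp6, stood at 7.74 and 3.87, a difference of -0.98 on 1228 and 704 fragments. Apcdd1, a membrane inhibitor of the pathway, differed by -0.46. Kremen1, the co-receptor of Dickkopf proteins, was at 6.31 and 7.11, a difference of 0.17, and Axin1, a scaffold of the β-catenin destruction complex, differed by 0.08.

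Wnt ligands that reached an FPKM of 1 had higher values in the irradiated library. There were 6 of these among 19 ligands, and all 6 had a positive difference. Their median was 0.40, beside 0.02 for all 11253 genes that reached this level. With a median above 0, a positive difference was common among all genes, so nothing is read from the count of 6. Under that level, Wnt9a was higher, with 21 and 50 fragments, and Wnt16 was lower, with 35 and 13. Counting intervals lay above 0 for 4 of the 6 ligands that reached an FPKM of 1, against 23.8% of all 11253 genes. Wnt2b had an FPKM of 1.82 on 198 fragments and 4.49 on 561, a difference of 1.26 with an interval of the fragment ratio from 1.07 to 1.55. With log2(FPKM + 1) this difference was 0.96, under the threshold of 1. Wnt5a, the most abundant ligand and one that acts mainly outside the β-catenin pathway, stood at 8.47 and 10.6, a difference of 0.32, and Wnt2 stood at 5.60 and 7.84, a difference of 0.48. The summed FPKM of the 19 ligands was 23.2 and 31.9. The summed FPKM of the antagonists selected by symbol, divided by that of the ligands, was 6.36 in the sham library and 2.20 in the irradiated library. Without Sfrp2 this ratio was 1.36 in the sham library and 0.806 in the irradiated library. The further antagonists described above were left out of these ratios. Among them Igfbp4 alone, at 88.5 and 81.5, stood above the summed FPKM of the ligands in each library. Whether the ratio lies above or below 1 therefore depends on which antagonists are listed, and nothing is read from it. The ratios compare sums of RNA levels and not amounts of protein.

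Receptors and transducers of the signal had differences on both sides of 0. Of 16 receptor genes, 14 reached an FPKM of 1, and their differences ran from -0.28 for Fzd8 to 0.30 for Lrp5, with a median of -0.04. Lrp5 and Lrp6, the targets of Dickkopf proteins and sclerostin, stood at 4.86 and 6.01, and at 17.9 and 17.2, respectively. Ryk and Fzd1, the most abundant receptors, differed by -0.04 and -0.07. Of 18 genes of Wnt secretion and transduction, 17 reached an FPKM of 1, with differences from -0.37 (Porcn, which lipidates Wnt ligands, on 88 and 76 fragments) to 0.25 and a median of -0.01. Ctnnb1, the gene of β-catenin, was 132 in both libraries. Csnk1a1 and Bcl9l differed by -0.13 and -0.26. Counting intervals lay above 0 for 3 and below 0 for 5 of the 14 receptors, and for 2 and 4 of the 17 other genes. Over all 11253 genes the shares were 23.8% and 17.5%. Of all 11253 genes, 485 were higher and 162 lower by at least 0.5, so nothing is read from the small size of these differences.

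R-spondins, which enhance Wnt signals through LGR receptors, included a gene that was lower. Rspo3 had an FPKM of 10.2 and 5.84 on 743 and 488 fragments, a difference of -0.79 with an interval from -0.97 to -0.63. Lgr4 differed by -0.14 and Rspo1 by -0.18. Of the 4 genes of this list with an FPKM of at least 1, 0 passed 1 in either direction. Over all 11253 genes, 0.791% were higher and 0.373% lower by this much, so nothing is read from this count.

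Target genes of β-catenin signalling differed in both directions. Of 16, 11 reached an FPKM of 1, with 8 positive and 3 negative differences. Their median was 0.07, beside 0.02 for all 11253 genes. Axin2, a widely used readout of the pathway, stood at 2.09 and 2.31, a difference of 0.14 with an interval from -0.09 to 0.38 that includes 0. Lef1 had 27 and 39 fragments, with an interval from -0.41 to 1.10. Ccnd1, the gene of cyclin D1, was the largest at 7.01 and 11.8, a difference of 0.74, while Myc differed by 0.05 and Wisp1, named Ccn4 in newer annotations, by -0.21. Of these 11 genes, 3 had a counting interval above 0 and 2 had one below 0. Over all 11253 genes the shares were 23.8% and 17.5%, so nothing is read from these counts.

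**Figure D3:**
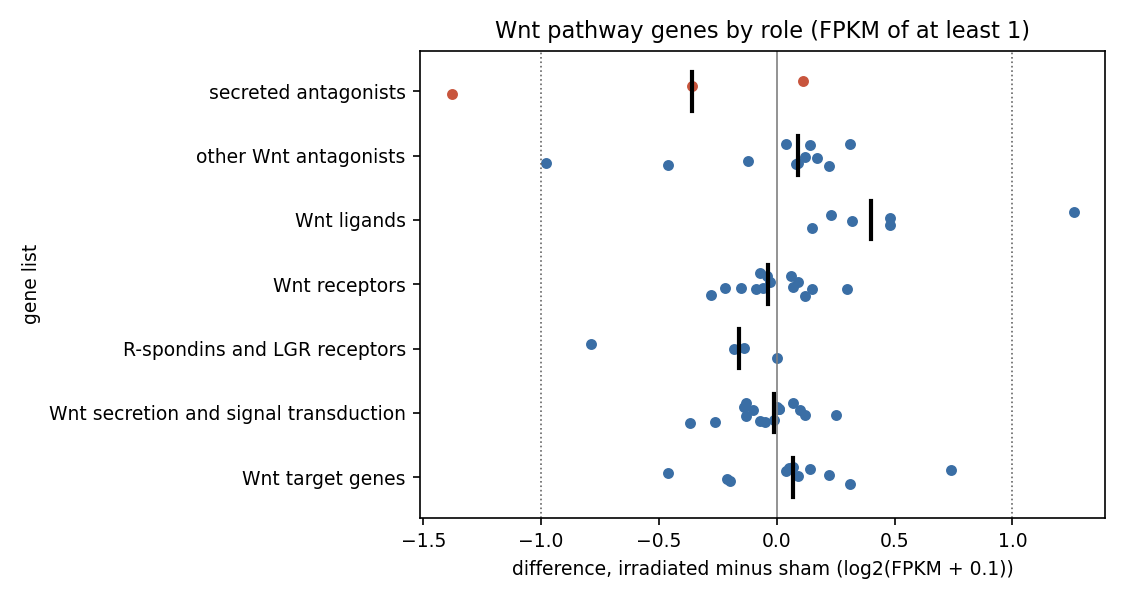
Difference between the libraries (horizontal axis, log2(FPKM + 0.1), irradiated minus sham) for genes with an FPKM of at least 1, by role, with 1 point per gene, a bar at each list's median, and dotted lines at -1 and 1. Sfrp2 and Wnt2b are the only points past the dotted lines, and all 6 Wnt ligands lie to the right of 0.

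Markers of other cell types are given beside these values because they also differed. The 12 fibroblast and progenitor markers had differences from -0.55 to 0.56 with a median of 0.01, and their summed FPKM was 4158 in the sham library and 3544 in the irradiated library. Of the 12 differences, 7 were positive and 5 negative. Pdgfra, at -0.37, and Col1a1, at -0.44, were among the 5 negative ones. Icam1, at 0.56, and Dpp4, at 0.44, were among the 7 positive ones.

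Mesothelial markers were higher, with 7 of 8 positive and a median of 1.07. Their summed FPKM was 36.2 and 51.2, and no marker of the list was at 0 in both libraries. Msln, with the largest difference, stood at 0.520 and 2.71. Wt1, the most abundant of the list, went the other way, at 20.4 and 18.7, a difference of -0.13. Macrophage markers had a median of 0.41 over 10 genes and a summed FPKM of 609.6 and 649.7. Endothelial markers had a median of 0.17 over 8 genes, with sums of 44.6 and 48.6, and pericyte and smooth muscle markers 0.25 over 8 genes, with sums of 1008 and 1253. The part of these cell types in the values of Sfrp2, Wnt2b, and the other genes above was not tested.

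**Figure D4:**
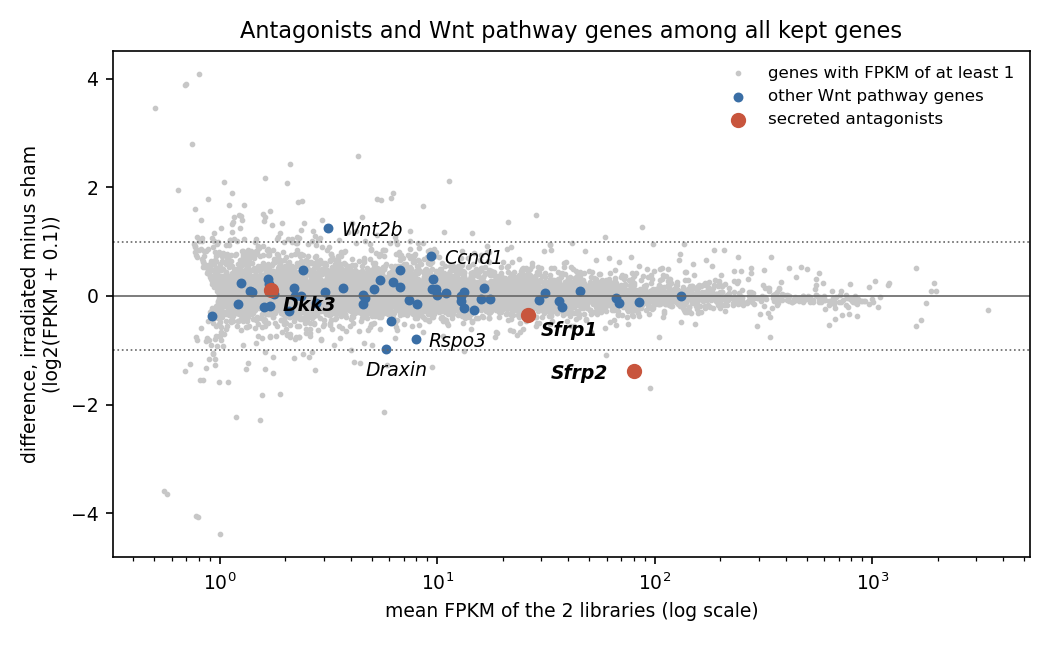
Mean FPKM of the 2 libraries (horizontal axis, log scale) against the difference, irradiated minus sham (vertical axis, log2(FPKM + 0.1)), for the 11253 genes that reached an FPKM of 1 (grey), other Wnt pathway genes (blue), and the 3 antagonists at this level (red). Sfrp2 lies below the dotted line at -1, in a range of levels where few grey points do, and Sfrp1 and Dkk3 lie between the dotted lines.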

How the data were processed

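Each value the authors deposited was the log2 of an FPKM to which 0.1 had been added, given to 2 decimals. Per the labels the genome build was mm10, and the sources used here do not give the aligner, the counting tool, or any filter. No column of other samples was present (0 columns). FPKM was recovered by reversing the logarithm. Library totals were those for which low genes gave whole fragments (all 1935 and 1956 genes used lay within 0.12 of a whole number), and recovered fragments of abundant genes are approximate. The procedure was tested on simulated data.

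Intervals are exact 95% Clopper-Pearson (ratio of fragments), exact Poisson (levels), or conditional (odds ratios), and a count of 0 is given the level of 3 fragments as its limit. They cover counting error only, as copies made by PCR are not independent molecules. Genes that reached an FPKM of 1 in a library were counted when the difference was at least 1. No fold is given for genes with at most 3 fragments in both libraries.

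The members and lists were chosen with earlier results of these data known. Genes named were the members and, per Wnt list, the 2 with the highest mean FPKM and the 2 with the largest difference, 6 pathway genes (Axin2, Lef1, Ctnnb1, Lrp5, Lrp6, Kremen1), the neighbours of Sfrp2, and the 3 genes nearest to it in pattern. Saa3, Cxcl12, Wnt9a, Wnt16, and the markers Adipoq, Fabp4, Lpl, Pnpla2, Pdgfra, Col1a1, Icam1, Dpp4, Msln, and Wt1 were named after their values were seen. Alternatives were other pseudocounts, filters, scalings, and thresholds. The software was SciPy 1.17.1 with pandas 2.3.3 and numpy 2.4.6 in Python 3.11.15, and figures were drawn with matplotlib 3.10.9.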

Additional observations from a re-analysis of the deposited data

How the results depend on the processing

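No paired analysis was possible because the conditions had no replicate libraries, and leaving out a replicate was not possible for the same reason. The difference of Sfrp2 stayed between -1.40 and -1.36 under log2(FPKM + 1), without a pseudocount, centred on the median of 10907 genes (a shift of -0.02), and scaled without the 100 most abundant genes (a shift of -0.02). For 42 other genes the difference was recomputed. With log2(FPKM + 1), Draxin (-0.84), Wnt2b (0.96), Msln (1.29), Wnt16 (-0.23), and Wnt9a (0.25) fell outside the counting interval of their ratio of fragments. The antagonists on few fragments also had smaller differences with log2(FPKM + 1), at 0.20 for Frzb, 0.17 for Sfrp4, and 0.11 for Dkk2. Col1a1 moved slightly when centred and when scaled (-0.46 in both). No difference with a counting interval that left out 0 changed sign. For the genes outside the Wnt lists these alternatives were chosen after seeing the data. The count of 1 antagonist that was lower was 0 with a threshold of 2 and did not change under the other alternatives. For Wnt pathway genes, the count of 1 that was higher was 0 with log2(FPKM + 1), with an FPKM of at least 5, and with a threshold of 2, and it was 2 with a threshold of 0.5. The count of 0 that were lower was 1 when centred (Draxin), 1 without a filter (Wnt16), and 2 with a threshold of 0.5. For all genes, the counts higher and lower were 29 and 17 with log2(FPKM + 1), 267 and 148 without a filter, 23 and 10 with an FPKM of at least 5, 11 and 8 with a threshold of 2, and 485 and 162 with a threshold of 0.5. Filters and thresholds change how many genes can be counted. Depth limits Dkk1, Sfrp5, Sost, and Wif1, for which no difference was detectable.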

Other observations

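On chromosome 3, the listed gene after Sfrp2 is Tlr2 (83836272 to 83841608), a receptor of bacterial lipoproteins, which lies 62.0 kb away. Its FPKM was 7.06 in the sham library and 5.40 in the irradiated library, a difference of -0.38 on 616 and 539 fragments, with a counting interval from -0.56 to -0.22. The listed gene before Sfrp2, 1700028M03Rik, 192.2 kb away, had 0 fragments in both libraries. The only neighbour with fragments thus differed by less than Sfrp2. Almost any gene would, since Sfrp2 was chosen for its difference, and nothing is read from this.

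Wnt16, a ligand under the FPKM filter, had 35 fragments in the sham library and 13 in the irradiated library, and its deposited values differed by -1. Its log2 ratio of fragments was -1.62, with a counting interval from -2.67 to -0.67, so it went against the direction of the 6 ligands with an FPKM of at least 1. Wnt9a, also under the filter, had 21 and 50 fragments, and its deposited values differed by 0.79. Its log2 ratio of fragments was 1.06, with an interval from 0.29 to 1.87.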
